A study of Mus musculus with 4 samples.

Results

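The 8 genes described here are the corticosteroid receptors Nr3c1 and Nr3c2 and 6 genes known to respond to them: Fkbp5, Sgk1, Tsc22d3, Zbtb16, Plin4 and Cdkn1a. They were taken by symbol from a count matrix of 19465 genes, and all 8 were in it. Their counts were followed across brain areas, built from genes outside the list, and across the 4 sets of spot barcodes in the matrix.

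The tissue was mouse brain, fixed in formalin, embedded in paraffin and cut as coronal sections through the striatum. Each section was read with Visium CytAssist, a method in which probe pairs for known genes are captured on an array of barcoded spots. A spot covers a small patch of tissue and can hold several cells of different types, so that more cells of a type and more RNA per cell cannot be told apart in any value below. The series has 4 mice, each giving 1 section: 2 wild-type animals and 2 animals heterozygous for Celsr3, an adhesion receptor of the cadherin family. All 4 were untreated. The labels give no strain, age or sex, and no further allele. The spot barcodes end in 1 of 4 numbers, here called sets 1 to 4, and neither the matrix nor the labels tie a set to a mouse. No genotype is therefore compared, and each value describes a set.

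Corticosterone, the main corticosteroid of the mouse, binds both receptors. Nr3c1 encodes the glucocorticoid receptor, which is found in most brain cells and is engaged when hormone is high. Nr3c2 encodes the mineralocorticoid receptor, which binds corticosterone more tightly and is known for its high level in hippocampal and septal neurons. Both rest in the cytoplasm with heat-shock chaperones, and with hormone bound they enter the nucleus and bind glucocorticoid response elements, whose classic form is a pair of inverted half-sites. Fkbp5 encodes a co-chaperone that lowers the affinity of the glucocorticoid receptor for hormone and is itself induced by it. Sgk1 encodes a serum- and glucocorticoid-regulated kinase, Tsc22d3 the leucine zipper protein GILZ, Zbtb16 the zinc finger factor PLZF, Plin4 a coat protein of lipid droplets, and Cdkn1a the cyclin-dependent kinase inhibitor p21, which is also a target of p53.

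Start-site windows of the members were searched for the response element, because it is the sequence through which the receptors act. The windows, of 300 bases each, run from 250 bases before a start site to 50 bases after it and come from RefSeq on mouse build GRCm38.p6. The table used held 14 windows for 6 of the 8 genes. Sgk1 had 6, Tsc22d3 had 3, Cdkn1a had 2, and Nr3c2, Fkbp5 and Plin4 had 1 each. The full element, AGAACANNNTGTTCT, reads the same on both strands. It was in 1 of the 14 windows and in 3 of 32851 windows of all genes (0.00913%). The 1 member window with the full element is a start site of Sgk1, at chr10:21993640-21993939 on the plus strand, shown 5′ to 3′ with the element in capitals.
Sgk1: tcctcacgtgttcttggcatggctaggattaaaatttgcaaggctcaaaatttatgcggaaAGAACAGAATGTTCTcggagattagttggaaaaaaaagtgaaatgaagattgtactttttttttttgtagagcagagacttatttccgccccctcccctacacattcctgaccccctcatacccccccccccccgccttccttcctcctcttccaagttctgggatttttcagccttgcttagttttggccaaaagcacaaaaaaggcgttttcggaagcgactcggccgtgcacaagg
The element fills positions 62 to 76 of this window, which are bases -189 to -175 from the start site. The half-site, AGAACA on one strand or TGTTCT on the other, overlaps the full element by construction and was in 4 of the 14 member windows: 3 of the 6 for Sgk1 and 1 of the 3 for Tsc22d3. It was in 19.0% of all windows. The Tsc22d3 window with a half-site lies at chrX:140600473-140600772 on the minus strand and is shown with the half-site in capitals, at bases -185 to -180 from the start.
Tsc22d3: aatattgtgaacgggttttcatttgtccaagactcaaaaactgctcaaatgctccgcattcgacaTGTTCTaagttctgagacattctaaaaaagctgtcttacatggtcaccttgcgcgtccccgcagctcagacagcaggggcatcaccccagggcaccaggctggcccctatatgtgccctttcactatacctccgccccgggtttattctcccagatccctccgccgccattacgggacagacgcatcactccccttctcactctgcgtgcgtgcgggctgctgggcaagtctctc
A match says only that the letters are there, and no binding was measured.

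The sets held 3055, 2808, 3445 and 3294 spots and 174761560, 109663162, 165185177 and 90752475 counts, with median counts per spot from 26444.5 in set 4 to 52481 in set 1. Of 4744 distinct barcodes, 1613 occurred in all 4 sets, where they mark array positions, and the counts of every pair of sets differed far beyond sampling noise. The libraries stood apart in pairs: the chi-square per degree of freedom between whole sections was 157 for sets 1 and 3 and 87.1 for sets 2 and 4, against 354 to 488 for the other pairs of sets. Between sets 1 and 3, 2.34% of genes were higher in set 1 by 1.5-fold and 0.838% lower, while between sets 1 and 2 these shares were 15.7% and 8.69%. Celsr3 itself was at 31.7, 46.8, 26.0 and 47.2 counts per 1000000 (CPM) in sets 1 to 4, which follows the same division and assigns no genotype to a set. Clustering placed 9321 of 12601 spots (74.0%) in areas named by fixed markers, and 9 areas had at least 20 spots in at least 3 sets. Ratios below compare an area with all other spots of the same set, and a gene was called higher or lower where the ratio was past 1.5-fold in every such set and each 95% interval left out 1. Intervals, exact Poisson for levels and exact binomial for ratios, cover counting error only.

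Over whole sections the members held between 481 counts in all 4 sets together (Plin4) and 67432 (Tsc22d3), and 7 of 8 had a mean of at least 10 CPM. Plin4 did not, and its values rest on few counts. The glucocorticoid receptor gene Nr3c1 was at 94.0, 60.7, 73.4 and 54.8 CPM in sets 1 to 4, highest in set 1 and lowest in set 4. The mineralocorticoid receptor gene Nr3c2 was at 48.1, 26.1, 39.9 and 24.5 CPM, with sets 1 and 3 above sets 2 and 4. Sgk1 was at 79.3, 51.8, 96.9 and 85.7 CPM, lowest in set 2. Cdkn1a was at 26.3, 37.6, 23.7 and 53.1 CPM, with sets 4 and 2 above sets 1 and 3. Nr3c1, Nr3c2 and Cdkn1a thus divided the sets as the libraries as a whole did, sets 1 and 3 from sets 2 and 4, and they cannot be told apart from that wider difference.

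These 4 genes were the members whose highest set exceeded the lowest by at least 1.5-fold, in CPM by 1.71-fold for Nr3c1, 1.96-fold for Nr3c2, 1.87-fold for Sgk1 and 2.24-fold for Cdkn1a. That is 4 of the 7 members at or above 10 CPM, beside 38.6% of the 10144 genes at that level. A list of 7 gives only a coarse share. The other 3 were closer together. Fkbp5 was at 35.3, 49.0, 47.7 and 41.1 CPM, Tsc22d3 at 111, 123, 128 and 149 CPM, and Zbtb16 at 9.91, 12.3, 12.6 and 14.6 CPM. Plin4 was at 0.549, 0.711, 1.19 and 1.22 CPM, from 96, 78, 196 and 111 counts. Scaling by the trimmed mean of M-values or by relative log expression changed which set was highest or lowest for Fkbp5, Tsc22d3, Zbtb16 and Plin4, and for none of the 4 genes that lay apart.

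**Figure D1:**
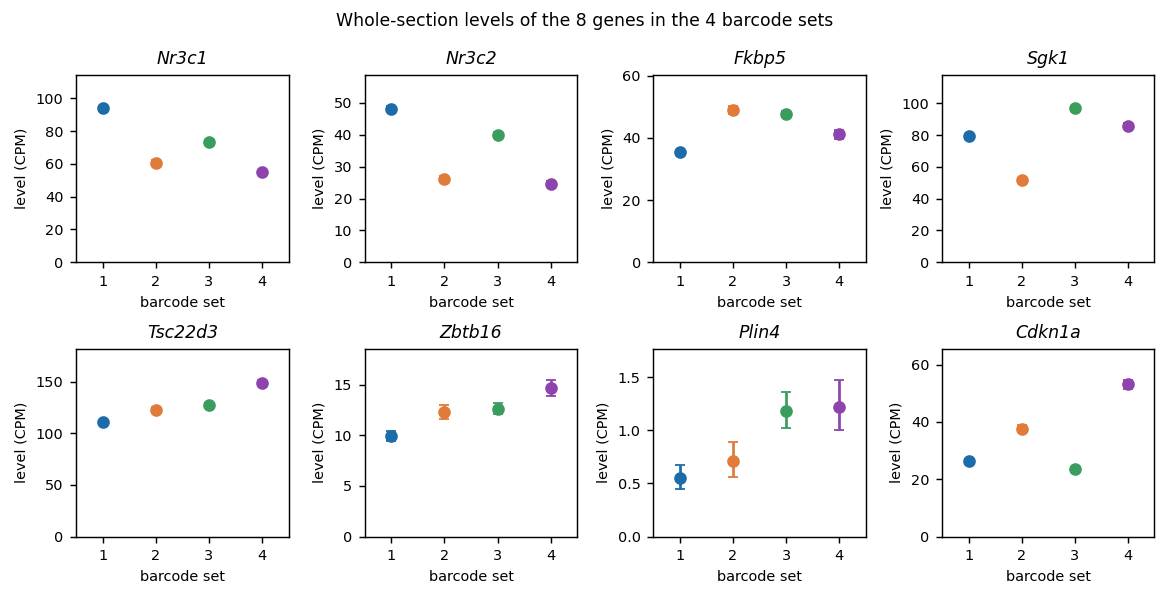
Whole-section level of each of the 8 genes (CPM, linear axes that start at 0) in barcode sets 1 to 4, with 95% Poisson intervals for counting error. Nr3c1 and Nr3c2 are highest in set 1 and lowest in set 4, Sgk1 is lowest in set 2, and Cdkn1a is highest in set 4.

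Other genes differed between the sets as well. The summed level of 10 oligodendrocyte markers was 18538, 9689, 9557 and 13300 CPM in sets 1 to 4, with all 10 highest in set 1. Immediate-early genes, which neurons switch on with activity, summed to 552, 1208, 511 and 1264 CPM over 10 genes, and the 4 blood genes to 10.2, 26.2, 6.09 and 127 CPM, both high in sets 2 and 4, where Cdkn1a was high. Their part in the levels of the members was not tested. Nr3c1 was highest in set 1 in each of the 9 areas, with levels there from 107 CPM in cortical layer 4 down to 70.7 CPM in the basal forebrain cholinergic zone. Nr3c2 was highest in set 1 in the other areas, but in set 2 in the choroid plexus, at 33.4 CPM, and in set 3 in the lateral septum, at 92.2 CPM. Within areas, 48 of 63 pairs of a member and an area had sets at least 1.5-fold apart, beside 47.3% of pairs over all genes, with the share of all genes by area running from 31.9% in cortical layer 4 to 65.9% in the choroid plexus. Each member gives 9 of these pairs, which share its whole-section difference and are not independent. The count fell to 31 of 49 pairs without set 2, a setting for which no share over all genes is given.

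Across areas, 5 of the 63 member and area pairs were called higher, which is near the 4.73% of pairs over all genes, and 6 were called lower, beside 7.52%. Both shares are near those of all genes, so the counts are no result about the list. The pairs themselves show members with unlike maps. Fkbp5 was called higher in the striatum, Tsc22d3 in the white matter, Nr3c2 in the lateral septum, and Zbtb16 in the meninges and in cortical layer 4. Zbtb16 was called lower in the striatum and the choroid plexus, Tsc22d3 in the striatum, Fkbp5 in cortical layer 4, and Sgk1 in the hypothalamus and in layer 6b with the claustrum. Nr3c1 and Cdkn1a were called in no area. Where no member was called higher, the share of all genes was 3.25% in the basal forebrain cholinergic zone, 7.03% in the choroid plexus, 5.03% in the hypothalamus and 1.63% in layer 6b with the claustrum. Where none was called lower, it was 7.07% in the basal forebrain zone, 6.24% in the lateral septum, 3.82% in the meninges and 11.1% in white matter. The median log2 ratio of the 7 genes was -0.17 in the striatum and -0.11 in the white matter, beside -0.06 in each over all genes.

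**Figure D2:**
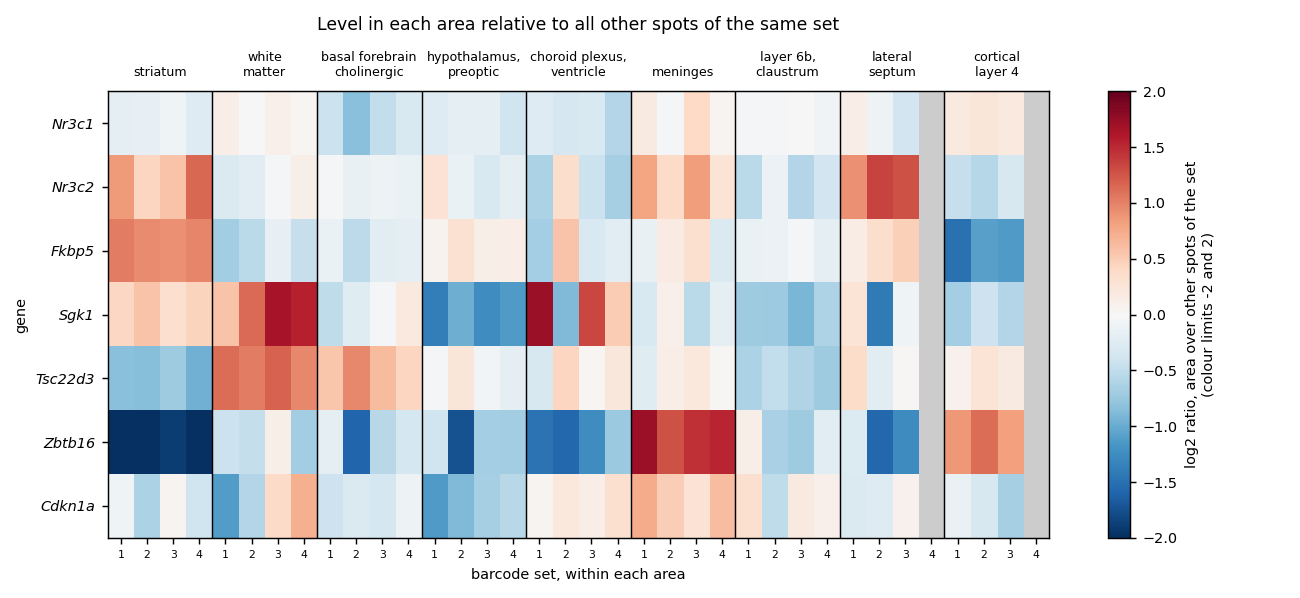
Colour map of the log2 ratio of each gene's level in an area to its level in all other spots of the same set, by area and barcode set (grey, under 20 spots); Plin4 is left out for its low counts. Zbtb16 is low in the striatum and high in the meninges in all 4 sets, Fkbp5 is high in the striatum, Tsc22d3 is high in white matter, and Nr3c1 is near 0 in most areas.

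Of the receptors, Nr3c1 had the flattest map. Its ratio to other spots lay between 0.562 and 1.32 in all 9 areas and all sets. The highest areas by the median ratio over sets were cortical layer 4 (1.15), the meninges (1.08) and white matter (1.05), and the lowest was the basal forebrain cholinergic zone (0.728), which lies under the striatum around acetylcholine neurons. In that order each area overlapped its neighbour over the sets, apart from white matter and layer 6b with the claustrum, whose ranges of 1.0017 to 1.102 and 0.957 to 1.0014 all but touched, and no neighbours are told apart here. In the striatum Nr3c1 was at 84.7, 55.6, 70.2 and 47.1 CPM, and in white matter at 103, 60.8, 78.4 and 56.4 CPM. The sets overlap between these areas, although white matter was above the striatum in each set. The thalamus, seen only in sets 1 and 4, had 121 and 72.6 CPM, the highest named-area level of Nr3c1 in each of those sets. An unnamed cluster led by Trbc2 and Myl4 had Nr3c1 ratios of 1.22, 1.33 and 1.37 in sets 1 to 3, above cortical layer 4 in each of them.

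Nr3c2 varied more, with ratios from 0.631 to 2.56. For the lateral septum, a nucleus between the ventricles, clustering named spots in sets 1 to 3 only. Nr3c2 was at 90.5, 62.0 and 92.2 CPM in them. Those levels were 1.89-fold (interval 1.52 to 2.33), 2.56-fold (2.29 to 2.87) and 2.41-fold (2.19 to 2.65) the level of other spots. It was called there beside 2.1% of all genes. The lowest ratio, in set 1, came from 25 spots whose oligodendrocyte markers summed to 78385 CPM, against 4362 and 12848 CPM in sets 2 and 3. Without set 1 the septum has only 2 sets and meets no call rule. The septal call was lost where areas came from marker scores.

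The striatum came next for Nr3c2, at 74.1, 32.2, 53.6 and 46.4 CPM, with ratios of 1.80, 1.35, 1.49 and 2.22. These overlap the septal ratios and those of the meninges (1.72, 1.31, 1.78 and 1.21), and neither area was called. Within the striatum 1 cluster was highest for Nr3c2 in each set, at 99.9, 41.9, 67.8 and 84.5 CPM, while the cluster that supplies most striatal spots of sets 1 and 3 had 65.8 and 51.9 CPM there. Below the meninges, at 1.21 or more in each set, the next area by median, the basal forebrain cholinergic zone, was at 0.983 or less. Their ranges did not overlap, but areas lower in the order reached the meninges in single sets. The hypothalamus had 1.22 in set 1 and the choroid plexus with the ventricle lining 1.28 in set 2. The latter had the lowest median ratio (0.692), although its sets went opposite ways, at 0.644, 1.28, 0.739 and 0.631. Layer 6b with the claustrum (0.665 to 0.924) and cortical layer 4 (0.672 to 0.799) were below 1 in every set. Over 38 area and set units, centred within sets, Nr3c1 and Nr3c2 had a Pearson correlation of -0.01, given as a description since the units share libraries and depth.

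Of the named areas, the striatum had the highest level of Fkbp5 in every set. Levels there were 59.2, 75.7, 75.0 and 71.0 CPM, and ratios to other spots were 2.03 (interval 1.93 to 2.14), 1.92 (1.82 to 2.03), 1.89 (1.80 to 1.98) and 1.96 (1.82 to 2.12). The call there stands beside 6.15% of all genes. The ratios differed little between sets, although the striatum was built from different clusters in them, with 1 cluster of 535 spots only in set 2 and 1 of 288 only in set 4. Each of the 5 striatal clusters was at 54.2 CPM or more in each set where it had 20 spots. No other area came within the spread of the striatal ratios, and the next, the lateral septum, had a median ratio of 1.27. Among the pathway genes that work beside it, Hsp90aa1, the chaperone that holds the receptors, was called lower in the striatum, at 522, 478, 447 and 441 CPM, and Fkbp4, the co-chaperone that opposes Fkbp5, was at 119, 162, 120 and 159 CPM, below its whole-section 167, 219, 174 and 238 CPM but called in no area.

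Cortical layer 4, the input layer of sensory cortex, was at the other end for Fkbp5. It had 12.9, 24.0 and 22.7 CPM in sets 1 to 3, which is 0.356-fold, 0.471-fold and 0.454-fold the level of other spots, beside 8.81% of genes called lower there. All other areas had higher median ratios, and the ranges over sets of layer 4 and of the next lowest, white matter (0.707), did not overlap. White matter itself had 22.6, 34.1, 42.8 and 30.5 CPM. When spots were grouped by marker score instead, layer 4 had 17.6, 26.9, 26.0 and 30.8 CPM, the lowest of the cortical layers in sets 1 to 3 and not in set 4, and the call was lost.

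Tsc22d3 had its highest median ratio in the spots named white matter. These came from 3 clusters, and 1 of them, with 555 of the 1311 spots, had 1 white matter marker (Trf) among its 10 leading genes and 6 among 20. The other leading genes were Padi2, Etnppl, Spp1, Agt, Unc13c, Sparc, Lhx8, Slc6a11 and Nkx2-1, of which Agt was a fixed astrocyte marker, Lhx8 a basal forebrain marker and Nkx2-1 a hypothalamic one. Levels were 216, 242, 272 and 271 CPM, and ratios were 2.17 (interval 2.09 to 2.25), 2.04 (1.91 to 2.18), 2.25 (2.15 to 2.36) and 1.95 (1.85 to 2.04). The call stands beside 8.81% of genes. Without the cluster led by Padi2 the ratios were 1.93, 2.00, 2.07 and 1.44, and the call was lost through set 4; it was lost likewise where areas needed their markers among 10 leading genes in place of 20. The basal forebrain cholinergic zone was next, at 160, 226, 192 and 196 CPM with ratios of 1.47, 1.95, 1.54 and 1.34, and its range met that of white matter in set 2 only. Tsc22d3 was called lower in the striatum, at 68.0, 77.5, 85.4 and 82.1 CPM, with ratios of 0.557, 0.557, 0.611 and 0.513, beside 11.9% of genes, a call lost under scaling by the trimmed mean of M-values. Tsc22d3 thus stood opposite to Fkbp5 in the striatum, where Fkbp5 was called higher. In white matter Fkbp5 had ratios of 0.616, 0.688, 0.894 and 0.725 and was not called. Over the 38 units the correlation of Tsc22d3 with Fkbp5 was -0.37.

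Sgk1 had its highest median ratio in white matter too, but its sets were far apart. It was at 112, 109, 275 and 219 CPM there, with ratios of 1.48 (interval 1.41 to 1.55), 2.20 (1.99 to 2.42), 3.12 (2.98 to 3.27) and 2.93 (2.76 to 3.10). Set 1 fell just short of 1.5-fold, and so the pair was not called, although it was in 14 of 17 alternative settings, including without set 1. Without the cluster led by Padi2 it was called, with ratios of 1.70, 2.37, 4.34 and 2.75. Sets 3 and 4 were well above sets 1 and 2, and the highest set was 2.52-fold the lowest. The oligodendrocyte markers of these spots summed to 79307, 65247, 47454 and 58384 CPM, and their part in the level of Sgk1 was not tested.

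In the choroid plexus and ventricle-lining spots Sgk1 was at 236, 28.4, 232 and 120 CPM. Set 2 was below the level of its other spots, at a ratio of 0.544, while sets 1, 3 and 4 had 3.31, 2.51 and 1.41. The spots of set 2 held little plexus: Ttr, the transthyretin gene that marks choroid plexus, was at 268 CPM there, against 138639, 158145 and 24869 CPM in sets 1, 3 and 4, while Ccdc153 of ciliated ventricle-lining cells was at 370, 415, 310 and 498 CPM. In these spots Sgk1 and Ttr were both lowest in set 2, next in set 4 and highest in sets 1 and 3. Where areas came from marker scores, Sgk1 was at 310, 65.8, 277 and 300 CPM in the choroid plexus. There only set 2 was low, and the intervals of sets 1 and 4 and of sets 3 and 4 overlapped. The part of plexus content in the level of Sgk1 was not tested. Without set 2, Sgk1 was called higher in this area. Sgk1 was called lower in the hypothalamus and preoptic area, at 33.0, 27.6, 43.4 and 42.3 CPM, with ratios of 0.382, 0.510, 0.422 and 0.456, beside 6.78% of genes. The hypothalamic spots of set 2 were mostly a cluster of 194 spots seen in no other set, and without such clusters the call was lost. It was lost too without set 3, at the lower clustering resolution and at a threshold of 2-fold, and held in 12 of 16 settings. Sgk1 was also called lower in layer 6b with the claustrum, at 49.0, 31.4, 51.9 and 56.6 CPM beside 3.74% of genes, but that call held in only 4 of 16 alternative settings and was lost without set 3 and without set 4.

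**Figure D3:**
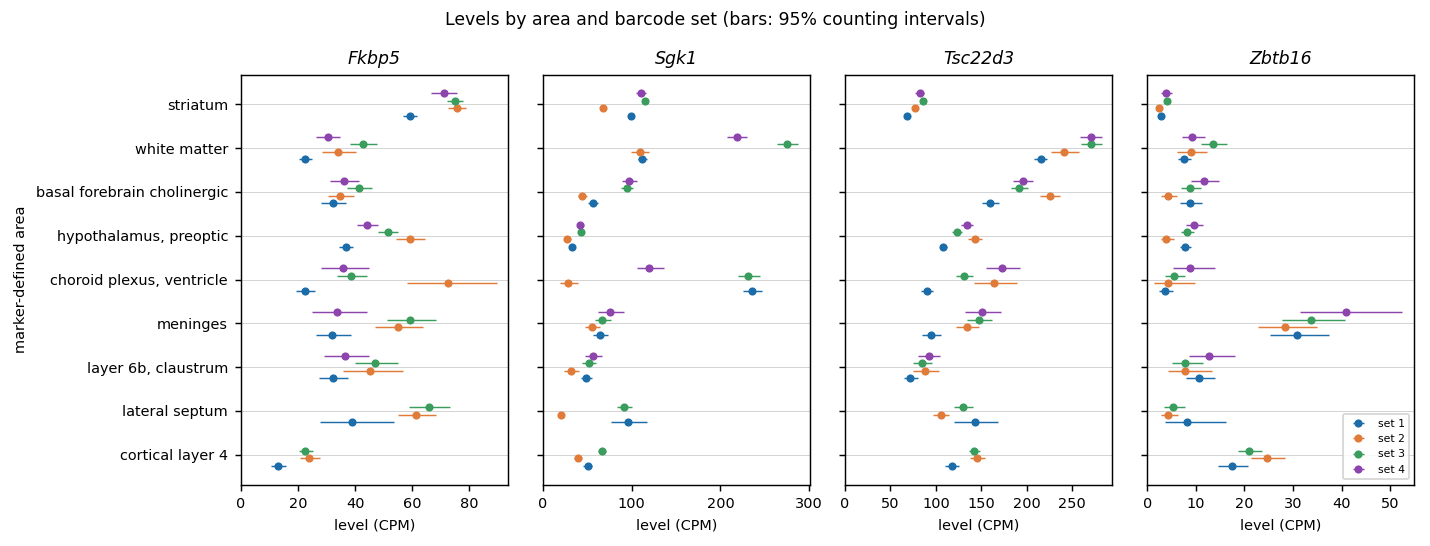
Levels (CPM) of 4 of the genes in the 9 areas, 1 point per barcode set with 95% Poisson intervals. Fkbp5 is at 59.2 to 75.7 CPM in the striatum, and Sgk1 spans 28.4 to 236 CPM between sets in the choroid plexus area.

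Zbtb16 had the widest map of the members with 10 CPM or more. In the striatum it was at 2.82, 2.32, 4.07 and 3.88 CPM, and ratios were 0.239 (interval 0.194 to 0.292), 0.146 (0.113 to 0.187), 0.269 (0.227 to 0.318) and 0.237 (0.175 to 0.314), beside 11.9% of genes called lower. In the meninges, the brain surface with the outer cortex under it, it was at 30.9, 28.4, 33.7 and 40.9 CPM, with ratios of 3.26 (2.65 to 3.96), 2.41 (1.92 to 2.98), 2.76 (2.25 to 3.35) and 2.88 (2.20 to 3.72), beside 4.44% of genes called higher. Both calls held in all alternative settings that gave the area, 16 for the striatum and 15 for the meninges. Of the 9 areas, cortical layer 4 followed, at 17.4, 24.6 and 21.0 CPM in sets 1 to 3. Its ratios were 1.82, 2.18 and 1.77, beside 4.11% of genes. Some spots outside the 9 areas were as high. Cortical layer 2/3 had ratios of 2.40 and 2.07 in sets 2 and 3. An unnamed cluster led by Fezf2 had 1.89, 3.12 and 2.31 in sets 1 to 3. Those led by Npnt, in set 1, and by Myl4, in set 4, had 2.93 and 2.59. Unnamed clusters led by Tafa2, Pvalb and Ctxn3 had ratios of 0.984 or less. In the choroid plexus area Zbtb16 was called lower, at 3.67, 4.17, 5.43 and 8.78 CPM beside 8.27% of genes. That call was lost in 6 of 16 settings, including without set 1. The meningeal spots carried high endothelial and mural markers, 661, 1111, 711 and 1247 CPM over 11 genes against 310, 355, 268 and 377 CPM in the striatum, and also neuron markers at 6460 to 7532 CPM. The part of either in the level of Zbtb16 was not tested.

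Cdkn1a had no area with a ratio past 1.5-fold in every set. In white matter its sets went opposite ways, at 12.8, 25.5, 30.5 and 83.2 CPM with ratios of 0.462, 0.668, 1.31 and 1.65. Sets 1 and 2 were below other spots and sets 3 and 4 above, and the highest set was 6.49-fold the lowest, the widest such gap of the 7 genes in a named area other than that of Sgk1 in the choroid plexus (8.32-fold). Its lowest area was the hypothalamus, at 12.9, 21.2, 15.5 and 37.8 CPM with ratios of 0.454, 0.540, 0.631 and 0.680, where set 4 fell short of the call. The blood genes of white matter summed to 4.49, 37.9, 8.04 and 192 CPM, high in set 4 like Cdkn1a, and this was not tested further. Plin4 had its highest median ratio in white matter, at 1.40, 1.02, 4.41 and 4.06 CPM, with ratios of 3.06 (interval 1.85 to 4.92), 1.46 (0.386 to 3.89), 4.29 (2.87 to 6.24) and 4.10 (2.57 to 6.36). Set 2 could not be told from other spots at this depth.

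White matter was split into its clusters because 3 members were highest there. The cluster with the most myelin markers among its leading genes (13 of 20) had 227, 95, 123 and 72 spots, and Sgk1 reached 148, 157, 450 and 294 CPM in it, higher in each set than in the other 2 clusters. Plin4 was at 1.21, 1.07, 8.22 and 6.89 CPM in the same spots, from 9, 2, 23 and 8 counts, and Cdkn1a at 11.7, 28.3, 35.7 and 112 CPM. Sgk1, Plin4 and Cdkn1a were all higher in sets 3 and 4 than in sets 1 and 2 there. Tsc22d3 was not: it was at 209, 250, 266 and 220 CPM, and in the cluster led by Padi2, Etnppl and Spp1 it was higher, at 235, 254, 285 and 317 CPM. That cluster held fewer oligodendrocyte transcripts, with markers summing to 46969, 23728, 26585 and 54275 CPM against 116235, 103190, 79610 and 88954 CPM in the myelin-rich one, and more neuron markers, at 5680, 5823, 5357 and 5351 CPM against 1402, 2285, 2193 and 2675 CPM. Astrocyte markers were at 3526 to 4378 CPM in it and 4237 to 4650 CPM in the myelin-rich one.

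Spots within white matter were then ranked by the summed level of oligodendrocyte markers, and the top 25% of spots in each set was set against the bottom 25%. Sgk1 was at 153, 171, 497 and 357 CPM in the top group and 74.4, 55.5, 138 and 136 CPM in the bottom ones, ratios of 2.06 (interval 1.81 to 2.35), 3.08 (2.28 to 4.19), 3.60 (3.16 to 4.11) and 2.63 (2.27 to 3.05). Nr3c1 was 1.63, 1.86, 1.69 and 1.61 times as high in the top group, each interval above 1. Nr3c2 was lower in them, with ratios of 0.438, 0.306, 0.507 and 0.657, and the interval of set 4 (0.403 to 1.04) took in 1. The receptors thus ran opposite ways along the same spots. Tsc22d3, with ratios of 1.03, 1.11, 1.01 and 0.931, differed from 1 in no set beyond counting error, with intervals from 0.814 to 1.33. Along neuron markers, Nr3c2 was higher in the top group of white matter, by 2.55, 5.83, 2.58 and 1.79, and Sgk1 lower, by ratios of 0.482, 0.388, 0.301 and 0.487. Top groups by oligodendrocyte markers were shallower, with median counts per spot of 14267 to 30762 against 21975 to 43084.5.

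In the striatum, where Tsc22d3 was low, it was higher in spots rich in oligodendrocyte markers. The top 25% of spots had 94.2, 105, 111 and 124 CPM and the bottom 25% had 52.3, 64.1, 73.2 and 59.1 CPM, ratios of 1.80, 1.63, 1.51 and 2.10. It was also higher with astrocyte markers, by 1.43, 1.49, 1.33 and 1.33, and lower with neuron markers, by 0.711, 0.677, 0.718 and 0.546. Fkbp5 moved the other way by less, with ratios along oligodendrocyte markers of 0.937, 0.818, 0.815 and 0.778, the first with an interval (0.827 to 1.06) that took in 1. Sgk1 in the striatum had ratios of 1.12, 1.03, 1.42 and 1.52 along the same markers, so that the step was clear in sets 3 and 4 and small in sets 1 and 2.

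**Figure D4:**
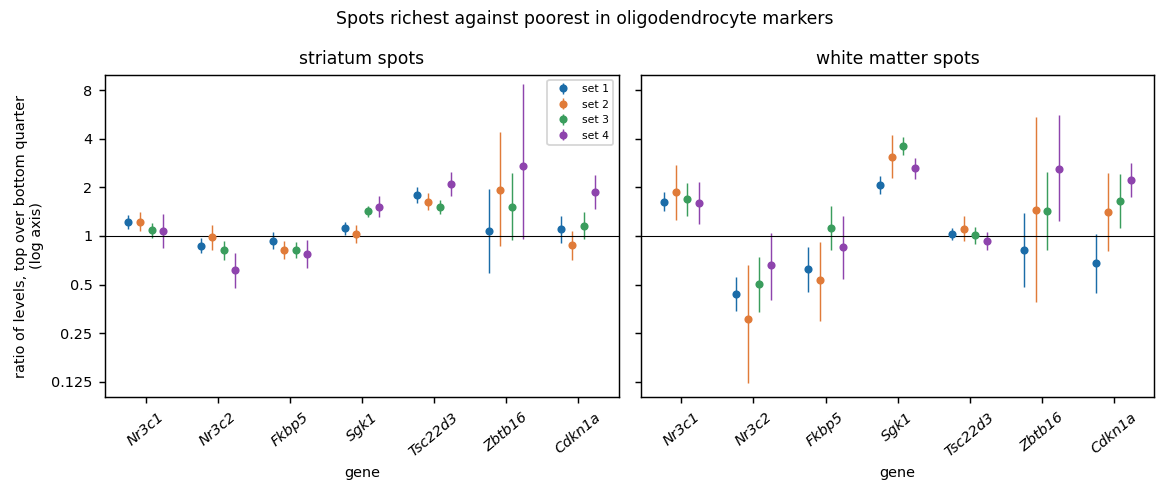
Ratio of the level in the top 25% of spots by oligodendrocyte markers to that in the bottom 25% (log axis, 1 point per barcode set with 95% exact intervals), in white matter and in the striatum. In white matter Sgk1 and Nr3c1 lie above 1 in all sets and Nr3c2 below 1, and in the striatum Tsc22d3 lies above 1 in all sets.

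The cortical layers, only partly named by clustering, were also described by giving each spot the area with the highest marker score, which yields 135 to 300 spots per set in layers 2/3, 4, 5 and 6. Nr3c2 was highest in layer 2/3, at 52.2, 26.8, 46.6 and 28.1 CPM, and lowest in layer 6, at 25.9, 15.9, 22.8 and 15.7 CPM, in all 4 sets. Nr3c1 ran differently and was highest of these layers in layer 6 in sets 1 to 3, at 113, 76.9 and 91.9 CPM, while in set 4 layers 2/3 and 6 were level at 62.7 and 62.4 CPM. Sgk1 was highest in layer 6 in all sets, at 76.6, 63.5, 89.2 and 82.3 CPM, against 48.5, 37.8, 60.0 and 49.3 CPM in layer 5.

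Tsc22d3 was lowest in layer 2/3, at 70.1, 86.1, 90.9 and 88.9 CPM, and higher in layer 5, at 126, 147, 153 and 157 CPM. Cdkn1a was the reverse of that, highest in layer 2/3, at 57.5, 66.9, 30.3 and 81.2 CPM, against 34.5, 37.1, 21.7 and 47.0 CPM in layer 5. Zbtb16 was highest in layer 5 in sets 2 to 4, at 29.9, 25.8 and 33.7 CPM, and at 21.2 CPM in set 1, where layer 2/3 had 22.4 CPM. Plin4 stayed at or under 1.27 CPM in every layer and set.

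**Figure D5:**
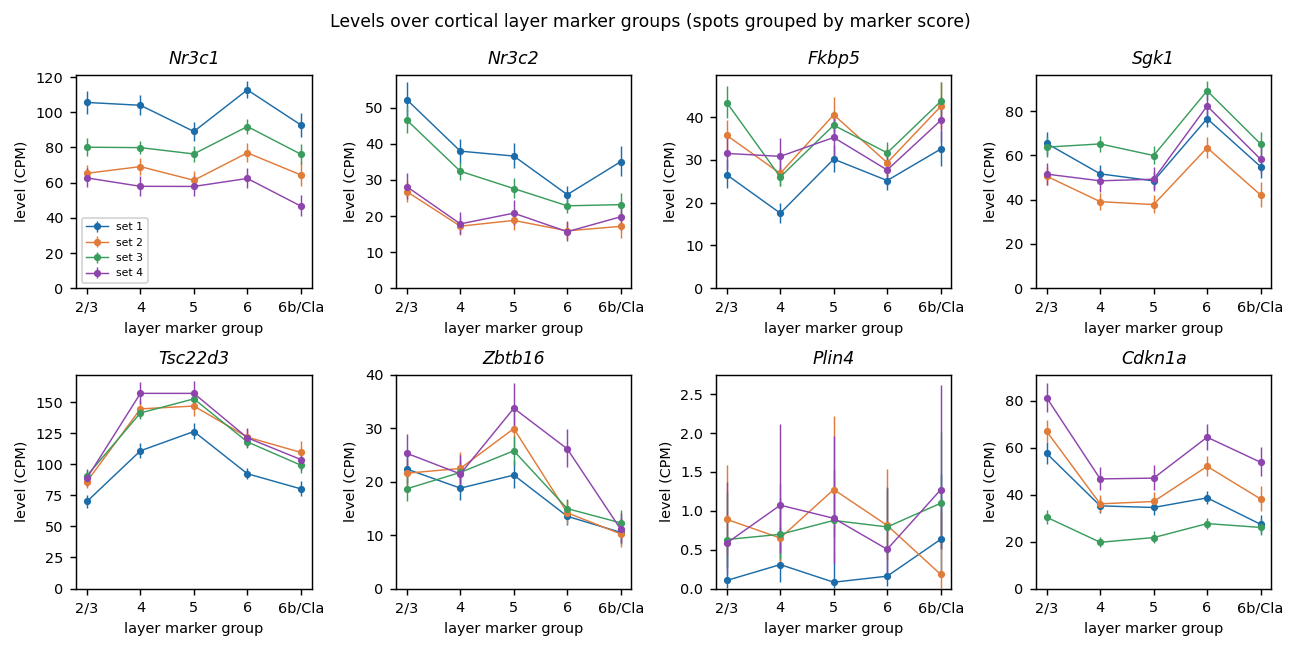
Levels (CPM) of the genes in cortical layers 2/3, 4, 5 and 6 and in layer 6b with the claustrum, by marker score. There is 1 line per barcode set, with 95% Poisson intervals. Among layers 2/3, 4, 5 and 6, Nr3c2 and Cdkn1a are highest in layer 2/3 in each of the 4 sets. Among the same layers and in each set, Tsc22d3 is lowest in layer 2/3 and Sgk1 highest in layer 6.

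For each member with 10 CPM or more, the 3 genes most like it were those with the highest Pearson correlation of log2(CPM + 1) over the 38 units, centred within sets. These correlations describe units that share libraries and depth. Tsc22d3 was closest to Kcnj10 (0.93), Scd1 (0.90) and Pigq (0.90). Zbtb16 was closest to Plekho1 (0.92), Vip (0.92) and Cd34 (0.90), and Fkbp5 to Sesn3 (0.88), Necab2 (0.87) and Cacng4 (0.86). Sgk1 was closest to Adipor1 (0.86), Mitf (0.85) and Elovl7 (0.83), and Nr3c2 to Kctd12 (0.83), Dock4 (0.81) and Wipf3 (0.75). The closest genes to Nr3c1 were Mindy3 (0.73), Cdc42se2 (0.72) and Sptbn1 (0.71), and to Cdkn1a Igfbp4 (0.68), Mcur1 (0.66) and Egln1 (0.66). No member was among the closest genes of another. Between members the highest value was 0.63, for Nr3c2 with Fkbp5, and the lowest was -0.52, for Fkbp5 with Zbtb16.

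The wider pathway was described by 4 lists with 51 genes in the matrix. Of 23 further genes known to respond to glucocorticoids, 17 had 10 CPM or more. In white matter 7 of those 17 were called higher, beside 8.81% of all genes, and their median log2 ratio was 0.54 against -0.06 over all genes. Counting the genes below 10 CPM, the 8 called were Ddit4, Nfkbia, Cebpd, Mt1, Mt2, Pdk4, Arrdc2 and Arrdc3. In the meninges 6 of the 17 were called higher beside 4.44% of genes, with a median of 0.52 against -0.07. In the striatum 0 of the 17 were called higher, beside 6.15% of genes, and 1, Gjb6, was called lower, beside 11.9%. In cortical layer 4, where Zbtb16 was called higher, 0 of the 17 were called higher, beside 4.11%, and Ddit4 and Arrdc3 were called lower, beside 8.81%. Without the cluster led by Padi2, 7 of the 17 were called higher in white matter, beside 8.37% of genes. These counts describe the lists and test nothing.

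Mt2, a metal-binding metallothionein, was at 838, 572, 988 and 561 CPM in white matter and 1012, 774, 1166 and 721 CPM in the meninges, against 505, 346, 477 and 359 CPM over whole sections. Pdk4, a kinase that restrains glucose oxidation, was at 20.5, 13.5, 24.6 and 10.3 CPM in white matter, against 10.9, 7.19, 9.67 and 5.95 CPM over whole sections. Klf9, a transcription factor, went the other way and was called lower in white matter, at 91.9, 147, 129 and 202 CPM against whole-section levels of 188, 308, 232 and 306 CPM. In the striatum Klf9 was at 279, 406, 306 and 461 CPM and was not called. Gpd1, which makes glycerol phosphate for lipids, was called lower in 3 areas and was at 31.4, 16.5, 32.0 and 20.5 CPM in the hypothalamus, against 73.8, 91.3, 83.9 and 92.9 CPM over whole sections.

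Of 6 genes of corticosteroid metabolism and transport, Hsd11b1, the enzyme that regenerates active hormone in cells, was called higher in 3 areas. It was at 104, 25.7 and 53.3 CPM in the lateral septum of sets 1 to 3, and at 52.8, 31.6, 39.2 and 29.0 CPM in the meninges. In the striatum it was called lower, at 14.1, 9.99, 10.1 and 8.93 CPM. Srd5a1, the reductase that inactivates corticosteroids and makes neurosteroids, was called higher in white matter, at 75.5, 46.6, 49.4 and 42.1 CPM, and Abcb1a, a pump of the blood-brain barrier that exports steroids, in the meninges, at 55.7, 47.4, 59.3 and 42.9 CPM. Serpina6, the hormone's carrier in plasma, was under 1 CPM in every whole section. The 11 chaperones and cofactors gave 1 call over the 9 areas, that of Hsp90aa1 in the striatum, beside 4.73% of pairs called higher and 7.52% called lower over all genes. Nrip1, a co-repressor, and Ncoa3, a co-activator, were called in none, at 27.1 to 33.1 CPM and 10.7 to 19.3 CPM over whole sections.

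Of the 11 genes of the stress peptide axis, 4 had 10 CPM or more. Avp, the vasopressin gene, was at 2425, 45.5, 435 and 990 CPM in the hypothalamus, where it was called higher, with set 2 far below the others. Crh, the gene of corticotropin-releasing hormone, was at 20.1, 92.2, 22.0 and 39.9 CPM in the same spots, highest in the set where Avp was lowest. Crhbp, which binds that hormone, was called higher in layer 6b with the claustrum, at 51.4, 64.0, 53.1 and 54.5 CPM, and lower in the striatum, at 3.73, 2.66, 2.84 and 5.82 CPM. Crhr2, the second receptor of the hormone, was at 33.3, 12.5, 34.3 and 15.6 CPM in the choroid plexus area. In the lateral septum it was at 3.08, 32.9 and 14.3 CPM in sets 1 to 3. The value of set 1 rests on the 25 septal spots rich in oligodendrocyte markers described above. The hypothalamic and septal spots of the sets thus differed in their peptide genes as well as in the members. The parts of the cell mix of these spots and of the level of each cut were not tested.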

How the data were processed

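The deposited matrix holds whole-number counts per gene and spot, made by the authors with Space Ranger and Seurat, per the submitters' processing notes. The probe set and build are not given in the sources used here. Spots with under 500 counts were left out (1 spot, of set 3). No row was without a gene name. The members and lists were chosen with earlier results of these data known. Areas came from clustering in scanpy 1.11.5 (10000 counts per spot, 2000 variable genes without members, pathway, immediate-early, Celsr and sex-linked genes, centring within sets, 30 components, 15 neighbours, Leiden resolution 0.8). Of 28 clusters, 19 had at least 3 fixed area markers among 20 leading genes and were named; 9 kept a number. Doublets do not apply to spots. Levels are a set's summed counts per 1000000. Log values used 1 CPM added. With no map from sets to mice there is no p-value and no replicate error. The genes named were all 8 members, the 3 genes most like each member, and of each pathway list up to 4 genes called in most areas; other genes are named only in full lists of calls, or where a result turns on them. Hsp90ab1, Ptges3 and Hspa8 were not analysed here. The calling script was tested on simulated counts. Scaling alternatives used edgeR 4.0.16. Alternatives changed the resolution, centring, markers, spot minimum, scaling, depth, fold, pseudocount and sets.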

Additional observations from a re-analysis of the deposited data

How the results depend on the processing

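Of 945 recomputed ratios of a member in an area, 883 kept their call or stayed uncalled, 30 gained a call and 31 lost one. A further 1 lost its call and changed sign. This was Sgk1 in layer 6b with the claustrum, whose mean log2 ratio of -0.74 became 0.036 with 10 leading genes. The sign was compared only where a call was lost. Against 5 pairs called higher, 6 lower, 4 members apart over whole sections, 48 pairs apart within areas and 68 pathway pairs, a threshold of 2-fold left 1, 2, 1, 20 and 29. Resolution 1.2 gave 8 pairs higher, in 11 areas. Marker scores gave 80 pairs apart within areas, of 105. Leaving out each set in turn gave 4 to 6 higher, 3 to 7 lower, 3 to 4 members, 31 to 40 pairs and 61 to 86 pathway pairs; the lowest lower count came without set 3 and the lowest count within areas without set 2. Shares over all genes are not given beside these counts, so the counts cannot show whether the lists moved more than other genes. The alternatives without clusters mostly of 1 set, without the white matter cluster led by Padi2, with 0.1 CPM added within areas, the splits by cluster and by cell markers, and the septum without set 1 were chosen after seeing the data. No paired analysis was possible because the barcode sets carry no replicate number. Depth limits Plin4 most, since it has 0 counts in some areas of single sets.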

Other observations

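A cluster of 63 spots in set 1 and 96 in set 4, led by Pvalb and Six3 and given no area, had Fkbp5 at 50.4 and 75.3 CPM and Tsc22d3 at 174 and 238 CPM. Fkbp5 was above every named area of set 1 but the striatum. Its interval there (44.0 to 57.3 CPM) overlapped that of the lateral septum (27.6 to 53.6 CPM). In set 4 Fkbp5 could not be told from the striatum (71.0 CPM), with an interval of 65.5 to 86.2 CPM, and was above the other named areas. Tsc22d3 was above every named area of both sets but white matter. Sgk1 was at 68.8 and 145 CPM and Zbtb16 at 3.96 and 7.46 CPM in the same spots. A second cluster without an area, led by Tafa2, Igfn1 and Ccn3 and present in all 4 sets with 31, 73, 80 and 117 spots, had the highest median ratio of Cdkn1a to other spots among groups seen in at least 3 sets, with levels of 35.8, 73.1, 41.7 and 76.6 CPM. Tsc22d3 was low in it, at 52.0, 77.1, 62.4 and 79.1 CPM, and Sgk1 was at 54.0, 32.4, 45.2 and 30.2 CPM.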
